A study of Mus musculus with 12 samples.

Results

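TRBV23, which encodes the Vβ20 chain, is a variable (V) segment of the mouse T cell receptor (TCR) beta locus, and it was followed through 12 TCR beta chain libraries. Its members were the clonotypes whose first listed V hit was TRBV23, which gave 1471 of 113665 clonotypes. They held 31370 of 1716882 unique molecular identifiers (UMIs), each of which stands for 1 captured TCR beta cDNA molecule. TRBV23 was chosen by its lower share of UMIs in KO than in WT libraries, so the WT and KO values are a description and carry no test. The libraries came from Rag2-/- recipients, which make no mature T or B cells themselves, 6 weeks after they were given naive CD4+ T cells. Donors were C57BL/6 Prkaa1 fl/fl mice (WT) or CD4-Cre Prkaa1 fl/fl mice (KO). All donor cells thus carried the floxed alleles of the AMPKα1 gene, and CD4-Cre deletes them in thymocytes that express both CD4 and CD8. Spleen and mesenteric lymph node (mLN) libraries were made for 3 WT mice (numbered 1, 3 and 4 in the labels) and 3 KO mice (numbered 1, 2 and 3), where the same genotype and number was taken as 1 mouse. Only TCR beta chains were measured, so the cell type could not be checked against other markers, and more cells with a receptor and more TCR mRNA per cell cannot be told apart.

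A TCR beta chain is assembled in developing T cells by joining 1 V, 1 diversity (D) and 1 joining (J) segment. Bases are trimmed from the segment ends and others are added without a template, which makes the complementarity-determining region 3 (CDR3) at the junction nearly unique to a T cell and its progeny. A clonotype is the set of molecules with 1 such receptor, and the CDR3 is the loop that lies over the antigen peptide. In transfer colitis a limited number of transferred naive cells multiplies in a host without T cells of its own. The share of a V segment thus depends on how many clonotypes use it and on how large each has grown.

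In the RefSeq annotation of mouse genome build GRCm38.p6, Trbv23 lies on the plus strand of chromosome 6 from 41216073 to 41216526 and has 2 exons, at 41216073 to 41216121 and 41216229 to 41216526. The nearest annotated V segments are Trbv21, 13028 bases before it, and Trbv24, 1564 bases after it, and segments that this annotation does not name, such as TRBV22, may lie between. The last 17 bases of exon 2, at chr6:41216510-41216526, are the part that enters the CDR3. They are shown here because TRBV23 members begin with some of them, followed by the most abundant productive TRBV23 clonotype of each mouse by its mean share over both organs, and by the clonotype that led in the mLN of WT replicate 1. In the rearranged sequences, capitals mark the bases between the aligned V and J parts, which come from the D segment or were added without a template.
Trbv23 end: tgctccagcagtcaatc
WT replicate 1: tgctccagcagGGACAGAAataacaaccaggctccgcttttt
WT replicate 1, leading in mLN: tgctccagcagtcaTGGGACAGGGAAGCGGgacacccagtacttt
WT replicate 3: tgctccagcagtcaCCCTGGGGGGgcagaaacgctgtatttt
WT replicate 4: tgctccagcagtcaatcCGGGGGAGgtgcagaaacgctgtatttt
KO replicate 1: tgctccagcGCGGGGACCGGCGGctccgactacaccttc
KO replicate 2: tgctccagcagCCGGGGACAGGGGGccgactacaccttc
KO replicate 3: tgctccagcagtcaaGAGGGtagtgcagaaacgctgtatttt

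The leading clonotypes of WT replicate 3, WT replicate 4 and KO replicate 3 used TRBJ2-3, those of KO replicates 1 and 2 used TRBJ1-2, and that of WT replicate 1 used TRBJ1-5 (TRBJ2-5 in its mLN). No 2 mice had the same leading clonotype. Trimming was common. Among 162 distinct TRBV23 CDR3s of at least 2 UMIs, counted once per mouse, the V alignment covered a median of 14 of the 17 germline bases, 44 kept all 17, and the shortest kept 8. The segment between V and J had a median of 9 bases. Almost all of them, 159 of 162, began with the first 9 germline bases. The WT replicate 4 clonotype is an example that kept the whole germline end, and KO replicate 1 kept only 9 bases of it.

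Library totals ranged from 2488 UMIs (KO replicate 3 mLN) to 493287 UMIs (WT replicate 3 spleen), so 3 counts correspond to between 0.000608% and 0.121% of a library. A second feature parted the libraries across both genotypes. Among their single-UMI clonotypes, 2.42% to 5.67% carried a CDR3 end rare for the J segment in 5 libraries (WT replicate 1 and KO replicate 1, both organs, and the mLN of KO replicate 3), against 25.1% to 36.8% in the other 7. The first kind also had the lower totals, 2488 to 64882 UMIs against 68536 to 493287, so kind and total cannot be told apart.

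TRBV23 made up a larger part of the WT than of the KO repertoires, with single large clonotypes in WT replicate 3 above all. In spleen it took 1.06%, 3.24% and 1.74% of UMIs in WT replicates 1, 3 and 4. In KO replicates 1, 2 and 3 it took 0.412%, 0.331% and 0.271%. The KO spleens thus lay close together, whereas the WT spleens spanned a wide range and lay above them all. Counts behind these shares were 119, 15993 and 7619 UMIs in WT and 267, 516 and 598 in KO. Group means were 2.01 ± 1.12% in WT and 0.338 ± 0.0707% in KO (SD, n = 3 each), a ratio of 5.96. The log2 fold change, KO over WT, was −2.58 (SE 0.76).

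In mLN the WT shares were 0.984%, 5.18% and 1.94%, from 118, 3553 and 1926 UMIs. KO replicates 1, 2 and 3 gave 0.939%, 0.334% and 0.482%, from 223, 426 and 12 UMIs. WT replicate 3 stood far above the other mLN libraries, and the lowest WT and the highest KO library were only 0.0457 percentage points apart. The Wilson 95% confidence intervals of those neighbours overlapped, at 0.823% to 1.18% in WT replicate 1 and 0.824% to 1.07% in KO replicate 1. In spleen the corresponding distance was 0.644 percentage points. Means in mLN were 2.70 ± 2.20% in WT and 0.585 ± 0.315% in KO (SD, n = 3 each), with a ratio of 4.62 and a log2 fold change of −2.20 (SE 0.91). In order of level, the groups ran from WT mLN through WT spleen and KO mLN to KO spleen, and neighbours of the same genotype differed by less than their spread.

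The rule fixes TRBV23 as a segment whose KO libraries lay lower, and among 25 V segments tested it was the 1 segment (4%) in each organ whose KO libraries all lay below all WT libraries. Within libraries with few rare J ends the KO minus WT difference was −0.644 percentage points in spleen (1 WT and 1 KO library) and −0.274 in mLN (1 WT and 2 KO libraries). Within those with many it was −2.19 (2 WT and 2 KO) and −3.23 (2 WT and 1 KO). Of these 4 comparisons 3 rest on an arm of 1 library. Without WT replicate 3 the differences, −1.68 percentage points in spleen and −2.12 in mLN over all mice, were −1.06 and −0.875.

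**Figure D1:**
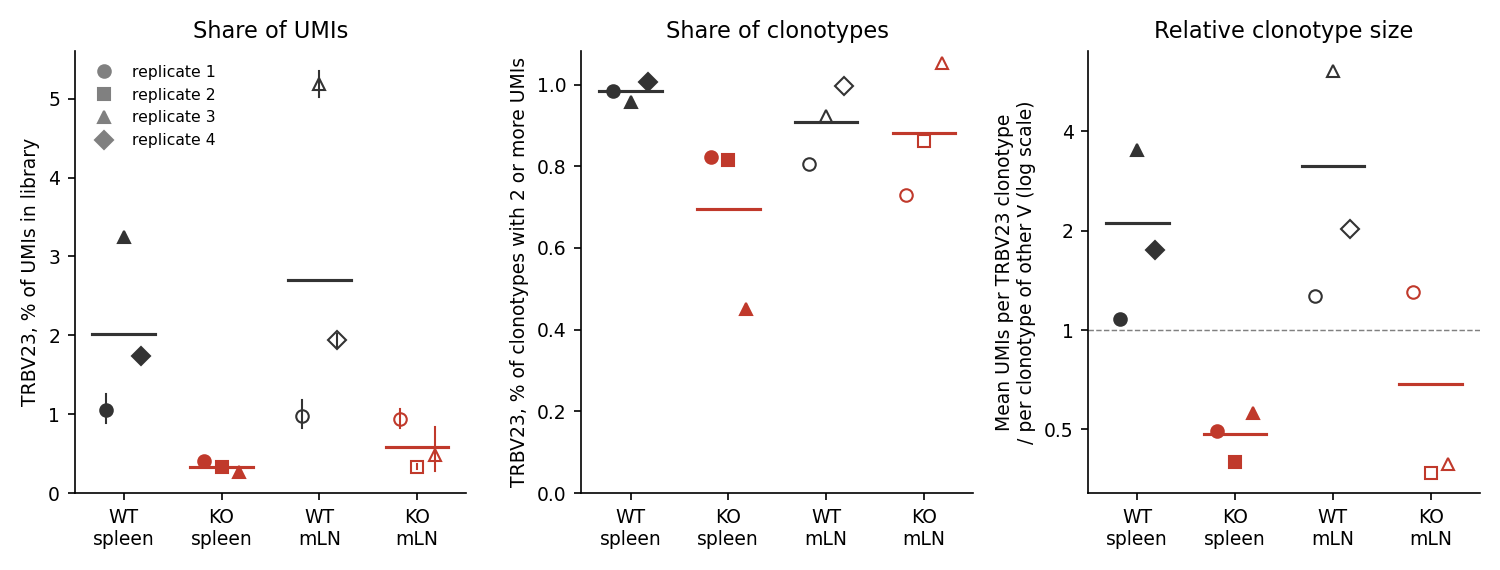
TRBV23 in each library by group (WT and KO, spleen with filled and mLN with open symbols, symbol shape by replicate number, horizontal lines at group means of n = 3). The left panel plots the percent of UMIs with Wilson 95% intervals, the middle panel the percent of clonotypes of at least 2 UMIs, and the right panel, on a log axis, the mean UMIs per TRBV23 clonotype divided by that of all other V segments; WT and KO lie apart in UMIs, where WT replicate 3 reaches 3.24% and 5.18%, while in mLN the clonotype shares overlap.

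The share of UMIs was therefore taken apart into the number and the size of clonotypes, here those of at least 2 UMIs. In spleen TRBV23 was used by 0.985%, 0.958% and 1.01% of such clonotypes in WT replicates 1, 3 and 4. In KO replicates 1, 2 and 3 it was used by 0.822%, 0.815% and 0.451%. The means of 0.983 ± 0.0239% and 0.696 ± 0.212% (SD, n = 3 each) had a ratio of 1.41, and replicate 3 accounted for most of the lower KO mean. In mLN the means were 0.908 ± 0.0954% in WT and 0.882 ± 0.162% in KO (SD, n = 3 each), and the libraries overlapped. The highest mLN value, 1.05%, was that of KO replicate 3, where it rests on 2 TRBV23 clonotypes. Counted over all clonotypes, those of 1 UMI included, the shares in spleen were 1.52 ± 0.549% in WT and 0.614 ± 0.156% in KO (SD, n = 3 each), a ratio of 2.48 without overlap. In mLN they were 1.17 ± 0.604% and 0.917 ± 0.430% (SD, n = 3 each), a ratio of 1.28 with overlap. How much of the difference lay in clonotype number thus depended on whether single-UMI clonotypes were counted. Library totals also ran from 2488 to 493287 UMIs. A minimum of 2 UMIs, here and for clonotype size below, is therefore a different share of each library. Overlap of WT and KO by share of clonotypes was not counted for the other V segments.

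Mean clonotype size is tied to the share of UMIs that the rule used, so its WT and KO values are likewise a description. A TRBV23 clonotype of at least 2 UMIs held on average 1.08, 3.50 and 1.75 times as many UMIs as one of another V segment in the spleens of WT replicates 1, 3 and 4. In KO replicates 1, 2 and 3 this relative size was 0.495, 0.397 and 0.560. All WT spleens were therefore above 1 and all KO spleens below it, with means of 2.11 ± 1.25 and 0.484 ± 0.0819 (SD, n = 3 each) and a ratio of 4.36. How many other V segments part WT from KO by relative size was not counted. In mLN the relative sizes were 1.27, 6.10 and 2.03 in WT. They were 1.30, 0.369 and 0.394 in KO. Here KO replicate 1 lay within the WT range, and the means were 3.13 ± 2.60 and 0.687 ± 0.530 (SD, n = 3 each). Medians did not follow the means. In spleen the median TRBV23 clonotype of at least 2 UMIs had 6.5, 4.5 and 5 UMIs in WT replicates 1, 3 and 4, against 5, 6 and 5 for other V segments. In KO replicates 1, 2 and 3 it had 6.5, 9 and 19.5 UMIs against 7, 7 and 7. The mean in WT replicate 3 spleen was 324 UMIs against 92.5, so its mean stood far above its median.

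Single clonotypes made up much of each TRBV23 set. The leading clonotype of WT replicate 3 held 14359 UMIs in spleen and 3233 in mLN, which was 2.91% (Wilson 95% interval 2.86% to 2.96%) and 4.72% (4.56% to 4.88%) of these libraries. It was the second most abundant of all clonotypes in both organs and formed 89.8% and 91.0% of TRBV23 there. In WT replicate 4 the leading clonotype held 3206 and 839 UMIs, or 0.734% and 0.843% of the libraries, and 42.1% and 43.6% of TRBV23. WT replicate 4 also had 4 further TRBV23 clonotypes of at least 0.1% in each organ, so its TRBV23 share was spread more evenly.

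The small libraries of WT replicate 1 had different leaders in the organs. The TRBJ1-5 clonotype led in spleen with 84 UMIs (0.745%, interval 0.602% to 0.922%) and held 18 in mLN (0.150%, 0.0950% to 0.237%). The TRBJ2-5 clonotype led in mLN with 60 UMIs (0.501%, 0.389% to 0.644%) and held 13 in spleen (0.115%, 0.0674% to 0.197%). The intervals of each clonotype did not overlap between the organs. These intervals cover counting error only.

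KO mice had leading clonotypes too. That of KO replicate 1 held 163 UMIs in spleen (0.251%, interval 0.216% to 0.293%) and 170 in mLN (0.716%, 0.616% to 0.831%). That of KO replicate 2 held 139 (0.0892%) and 185 UMIs (0.145%). That of KO replicate 3 held 241 (0.109%) and 8 UMIs (0.322%, 0.163% to 0.633%). In the spleen the leading clonotype was thus below 0.3% of the library in each KO mouse and above 0.7% in each WT mouse. The UMIs of the leading clonotype are part of the share that the rule used. Leading clonotypes of the other V segments were not compared between WT and KO. The rank of the leading TRBV23 clonotype among all clonotypes of the spleen was 24, 2 and 16 in WT replicates 1, 3 and 4. It was 64, 211 and 173 in KO replicates 1, 2 and 3. In mLN the groups overlapped, with the leading clonotype of the organ at 0.501%, 4.72% and 0.843% in WT and 0.716%, 0.145% and 0.322% in KO. Its ranks there were 30, 2 and 10 in WT and 21, 137 and 58 in KO.

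**Figure D2:**
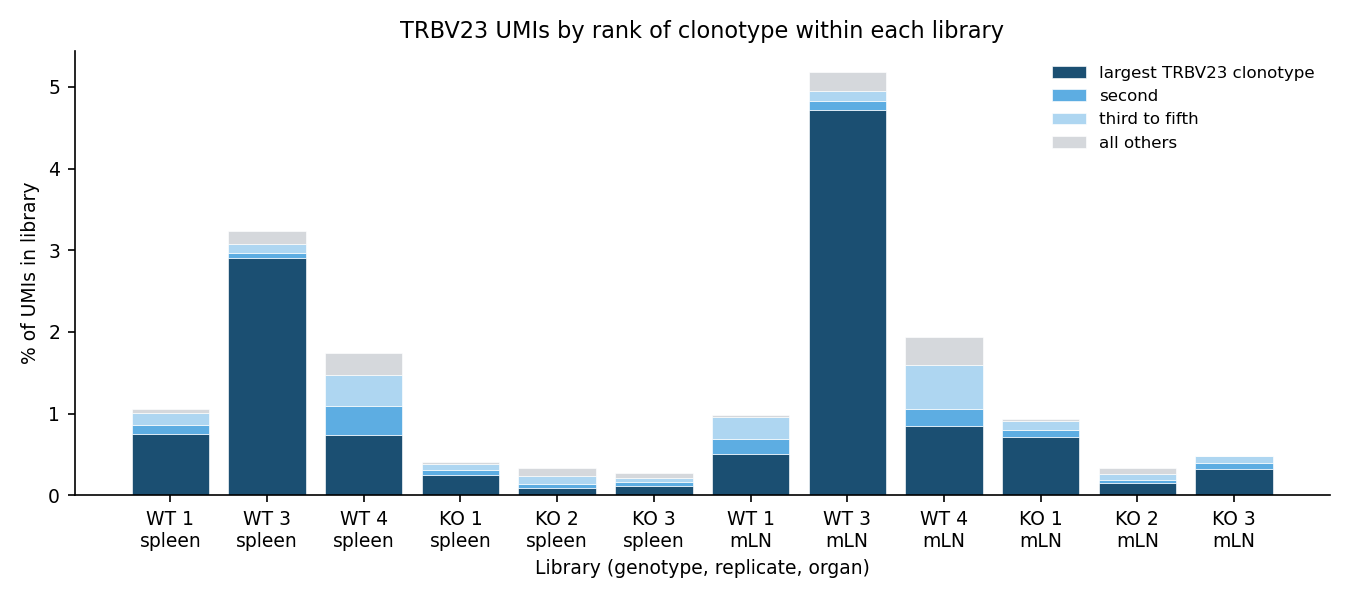
TRBV23 as percent of UMIs in each of the 12 libraries, stacked by the rank of the clonotype within TRBV23 (largest, second, ranks 3 to 5, all others). WT replicate 3 is nearly all 1 clonotype (2.91% of 3.24% in spleen and 4.72% of 5.18% in mLN), WT replicate 4 is spread over several, and no KO library exceeds 0.939%.

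With the largest TRBV23 clonotype of every library left out, the share in spleen fell to 0.313%, 0.341% and 1.02% in WT replicates 1, 3 and 4. It fell to 0.161%, 0.242% and 0.162% in KO replicates 1, 2 and 3. The groups still did not overlap, and WT replicate 3 now lay beside WT replicate 1. The remaining UMIs were also part of the share that the rule used, and other V segments were not compared in this way. The means were 0.557 ± 0.399% and 0.188 ± 0.0466% (SD, n = 3 each), and their ratio of 2.96 compares with 5.96 for all clonotypes. Without it the mLN means were 0.693 ± 0.354% and 0.192 ± 0.0318% (SD, n = 3 each), a ratio of 3.61.

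Whether TRBV23 differed between organs was not part of the rule and could be tested. The share was higher in mLN than in spleen in 5 of 6 mice. The differences were −0.0714, 1.94 and 0.191 percentage points in WT replicates 1, 3 and 4, and 0.527, 0.00269 and 0.212 in KO replicates 1, 2 and 3. WT replicate 3 set most of the mean of 0.467 ± 0.752 percentage points (SD, n = 6), and the two-sided exact sign-flip test gave p = 0.09375. Across V segments, edgeR's quasi-likelihood test with the mouse as a block gave a log2 fold change of 0.44 (SE 0.23, mLN over spleen) and a Benjamini-Hochberg adjusted p of 0.422 over 25 segments, so no organ difference of TRBV23 passed the threshold. This test called 0 of 25 V segments (0%), with 3 at an unadjusted p under 0.05, and DESeq2 called 1. Without the largest TRBV23 clonotype the mean difference was 0.0694 percentage points, with 4 of 6 mice higher in mLN (two-sided exact sign-flip test, p = 0.125).

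The organ difference was then compared between genotypes. The edgeR interaction was 0.40 on the log2 scale (SE 0.50), larger in KO, with an adjusted p of 0.903, and 0 of 25 V segments (0%) passed, with 2 at an unadjusted p under 0.05 and 0 by DESeq2. The estimate was smaller than its SE with 3 mice a genotype.

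**Figure D3:**
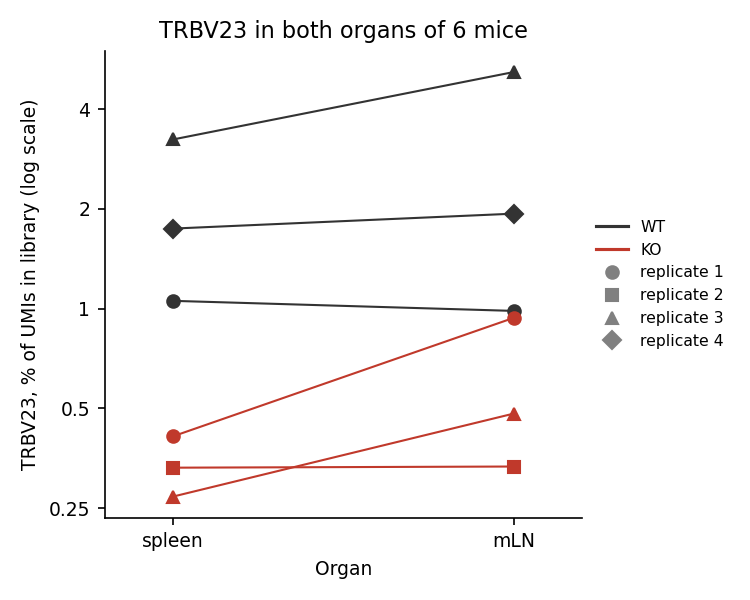
TRBV23 as percent of UMIs (log axis) in spleen and mLN, with 1 line for each of 6 mice (WT dark, KO red, symbol by replicate number). The lines of WT replicate 3 (3.24% to 5.18%) and of KO replicates 1 and 3 rise towards mLN, and the other 3 are nearly level.

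Large TRBV23 clonotypes were found in both organs of their mouse. Of 68 TRBV23 CDR3s with at least 10 UMIs over both organs, 59 were seen in both. These were 4 of 4, 17 of 18 and 18 of 20 in WT replicates 1, 3 and 4, and 5 of 6, 13 of 13 and 2 of 7 in KO replicates 1, 2 and 3. The low value of KO replicate 3 goes with an mLN library of 2488 UMIs, in which a share of up to 0.121% can go unseen. Its TRBV23 clonotype second in spleen, for example, held 128 UMIs (0.0579%) in its spleen and 0 of 2488 in its mLN. By UMIs, 89.7 ± 12.7% of TRBV23 and 90.4 ± 6.77% of the other V segments lay in clonotypes of both organs (SD, n = 6 mice, difference −0.772, exact sign-flip p = 0.84375, adjusted p = 0.969 over 5 features).

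Across mice, 19 of 1109 productive TRBV23 amino acid CDR3s occurred in at least 2 mice, and 3 of these in 3 mice. Most of the 5 found most widely were very uneven. The CDR3 that led in WT replicate 3 had 17595 UMIs there, 5 in WT replicate 4 and 1 in KO replicate 3. The CDR3 that led in the spleen of WT replicate 1 had 102 UMIs there and 1 each in WT replicates 3 and 4, always with the nucleotide sequence printed above. The leaders of WT replicate 4 and of the mLN of WT replicate 1 each had 1 UMI in WT replicate 3, beside 4047 and 73 in their own mouse. Of 13 nucleotide CDR3s found in more than 1 mouse, 8 were at least 100 times more frequent in 1 of them. Whether such low counts came from molecules of another library was not tested.

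A TRBJ2-3 clonotype was the exception among the 3 CDR3s of 3 mice, since no mouse held more than 11 UMIs of it. It had 11 UMIs in WT replicate 3, 3 in WT replicate 4 and 2 in KO replicate 1. The nucleotide sequence was the same in all 3 mice and is shown for its 13 bases between V and J.
Shared by 3 mice: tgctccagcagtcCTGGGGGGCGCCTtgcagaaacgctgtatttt

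The share of productive TRBV23 clonotypes found in another mouse with the same V segment was 15.4 ± 15.9%, against 15.2 ± 11.5% for other V segments (SD, n = 6 mice, difference 0.187, exact sign-flip p = 0.9375, adjusted p = 0.969). Sharing of TRBV23 between mice therefore did not differ from that of other V segments beyond the spread between mice.

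Each functional J segment was compared between productive clonotypes with TRBV23 and those with another V segment in the same libraries, averaged over the organs of a mouse. TRBJ1-3 made up 0.917 ± 1.62% with TRBV23 and 6.70 ± 0.896% with other V segments (SD, n = 6 mice). TRBJ2-2 made up 0.789 ± 1.21% and 5.70 ± 0.706%, and TRBJ2-4 made up 1.66 ± 1.87% and 10.8 ± 1.81% (SD, n = 6 mice). Each was lower with TRBV23 in 6 of 6 mice, and each reached p = 0.03125, the smallest that the exact sign-flip test over 6 mice can give. After adjustment over 12 J segments these were 0.125, so 0 of 12 (0%) passed, with 3 at an unadjusted p under 0.05. With so high a smallest p, a segment can pass after adjustment only if most of the 12 reach it. The adjusted values therefore cannot decide whether these 3 segments differ. The libraries of WT replicate 1 and KO replicate 1 held only 7 to 14 TRBV23 clonotypes each, and KO replicate 3 mLN held 4. A J segment of this level can go unseen in so few, which makes a lower value likely there. In WT replicates 3 and 4, TRBJ2-3 alone took 70.1% and 42.3% of productive TRBV23 clonotypes, which leaves less for the other J segments.

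TRBJ1-3 had a count of 0 among productive TRBV23 clonotypes of at least 2 UMIs, and it is singled out here for that count. Counted once per mouse and pooled over the 6 mice, 0 of 137 productive TRBV23 CDR3s used it, against 1038 of 15857 (6.55%) with other V segments. A count of 0 of 137 allows a share of up to 2.19% if the CDR3s are taken as independent draws. In the 6 mice the other V segments gave 5.71% to 8.50%, and TRBV23 gave 0 in each (mean difference −6.97 percentage points, exact sign-flip p = 0.03125, adjusted p = 0.188). With 0 in every mouse the test can only return its smallest p, so this p adds nothing to the count. WT replicate 1 and KO replicates 1, 2 and 3 had only 6, 11, 23 and 13 TRBV23 CDR3s of at least 2 UMIs, nonproductive ones included. A count of 0 therefore says little in these mice. Among the 21 other V segments with at least 50 such CDR3s the share ran from 2.64% (TRBV14) to 10.4% (TRBV12-1), with a median of 6.76%. TRBV23 was not absent from joints with TRBJ1-3, since 5 of 25 nonproductive TRBV23 CDR3s of at least 2 UMIs used it (20%), 1 of them with 253 UMIs. With other V segments 181 of 3092 nonproductive CDR3s used it (5.85%). The 20% rests on 5 CDR3s pooled over mice, and its difference from 5.85% was not tested. Productive TRBV23 to TRBJ1-3 joints were limited to 7 clonotypes of 1 UMI each.

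TRBJ2-2 and TRBJ2-4 were less distinct in the clonotypes of at least 2 UMIs, at 1.84 ± 2.55% against 5.58 ± 0.884% and 4.14 ± 4.29% against 9.95 ± 0.487% (SD, n = 6 mice), with 5 of 6 mice lower in each case (exact sign-flip p = 0.0625 and adjusted p = 0.188). TRBJ2-3, the segment of the leading clonotypes of WT replicates 3 and 4 and KO replicate 3, made up 28.4 ± 27.1% of all productive TRBV23 clonotypes against 9.31 ± 1.40% (SD, n = 6 mice, exact sign-flip p = 0.21875, adjusted p = 0.438). TRBJ2-5 made up 17.4 ± 14.3% against 12.5 ± 1.01% (SD, n = 6 mice, exact sign-flip p = 0.59375, adjusted p = 0.648). The remaining 7 J segments differed by less than their spread between mice, with adjusted p from 0.375 to 1.

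**Figure D4:**
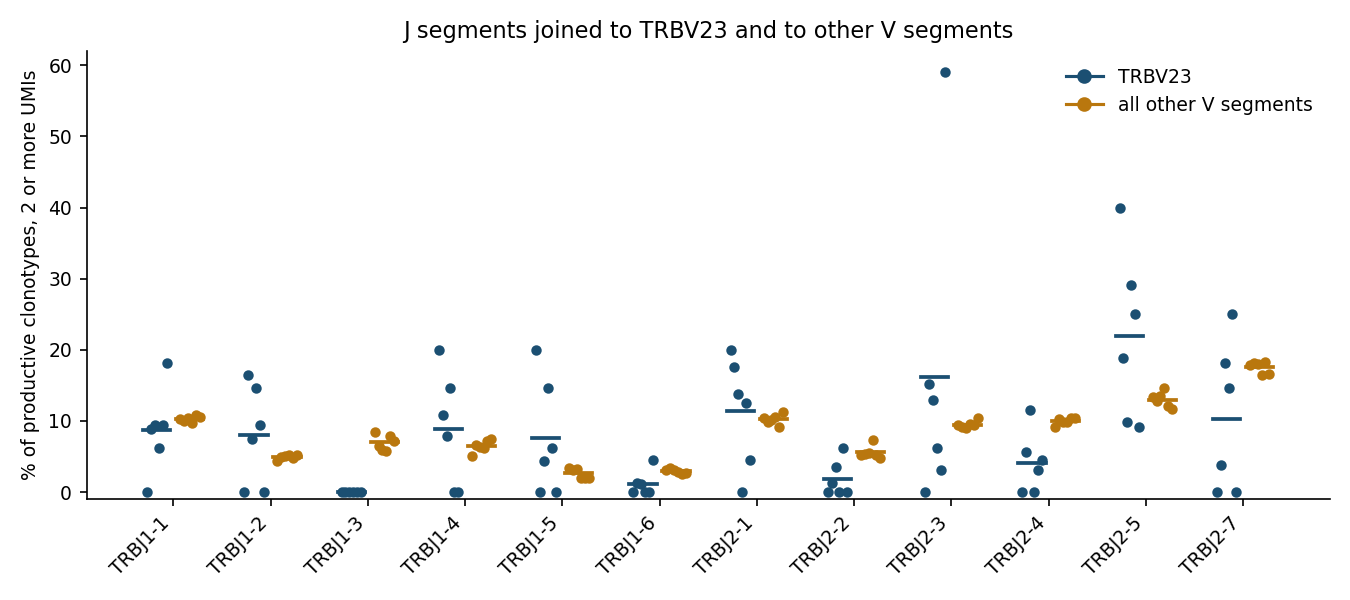
Percent of productive clonotypes of at least 2 UMIs with each of 12 J segments, for TRBV23 and for all other V segments (1 point per mouse, the mean over its organs, lines at the mean of n = 6 mice). TRBV23 points scatter widely because they rest on few clonotypes, the 59.1% for TRBJ2-3 being KO replicate 3, and TRBJ1-3 is the segment at 0 with TRBV23 in all 6 mice.

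No difference in the other junction features passed the threshold after adjustment. With a smallest p of 0.03125, passing would have needed most of the 5 features to reach it. The adjusted values therefore say little about a single feature. The mean CDR3 length was 42.0 ± 0.986 nucleotides with TRBV23 and 41.5 ± 0.0933 with other V segments, longer in 5 of 6 mice (SD, n = 6, exact sign-flip p = 0.21875, adjusted p = 0.547). TRBJ2 segments together were used by 65.7 ± 12.9% and 65.9 ± 1.68% of productive clonotypes (SD, n = 6 mice, exact sign-flip p = 0.96875). CDR3s out of frame or with a stop codon made up 13.3 ± 2.23% of TRBV23 clonotypes and 17.1 ± 1.70% of the others. This nonproductive share was lower in 6 of 6 mice (difference −3.73 percentage points, SD 2.06, exact sign-flip p = 0.03125, adjusted p = 0.156), but the difference was −0.632 and lower in 3 of 6 mice once clonotypes of 1 UMI were left out.

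Most members were single molecules. Of the 1471 TRBV23 clonotypes, 1246 (84.7%) had 1 UMI, 225 had at least 2 and 86 at least 10. Over all V segments, single-UMI clonotypes made up 31.0% to 84.2% of the clonotypes of a library (median 70.9%, n = 12 libraries). Single-UMI members were concentrated in WT replicates 3 and 4, with 443 and 441 in spleen and 89 and 114 in mLN. Over all V segments the single-UMI share was 79.1% and 84.2% in these spleens and 66.5% and 75.2% in these mLN libraries. The 2 spleens also held the most clonotypes of all libraries, 23951 and 31379. Many single-UMI TRBV23 members used the J segment of the leading clonotype. In WT replicate 3 spleen, 342 of 443 used TRBJ2-3, the J segment of the leading clonotype, against 8 of the 47 other clonotypes of at least 2 UMIs. Over all libraries 711 of 1246 single-UMI members used the J segment of the largest TRBV23 clonotype of their library, against 21 of 213 larger ones. Of these 711, the spleens of WT replicates 3 and 4 gave 342 and 205, and their mLN libraries 69 and 50. Among the 711, 582 differed from the largest clonotype by 3 to 8 edits in the CDR3 nucleotides and 17 by 1 or 2. Most of the 21 larger clonotypes with that J segment also lay at 3 to 8 edits. Features above that count every clonotype, such as the main J segment shares, CDR3 length and the nonproductive share, include the single-UMI members. TRBJ2-3, for example, made up 28.4% of productive TRBV23 clonotypes with them and 16.1% without. Whether the single-UMI members are copies with errors or separate T cells was not tested.

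**Figure D5:**
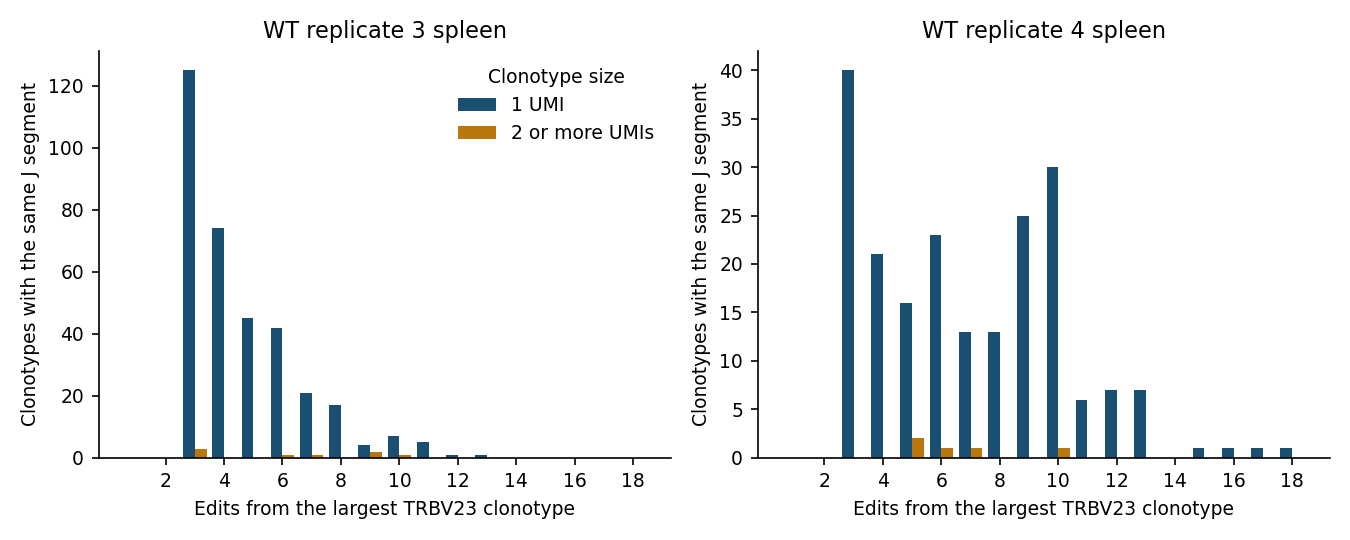
Number of TRBV23 clonotypes with the J segment of the largest TRBV23 clonotype, by edit distance from it (nucleotide edits in the CDR3), in the spleens of WT replicates 3 and 4, for clonotypes of 1 UMI and of 2 or more. In WT replicate 3 the single-UMI clonotypes peak at 3 edits (125 clonotypes) and fall off, and none lies at 1 or 2 edits, while in WT replicate 4 a second rise is seen near 10 edits (30 clonotypes).

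Among the 25 V segments TRBV23 ranked 18 by its mean share over the 12 libraries, 1.41 ± 1.48% with a median of 0.962% (SD, n = 12 libraries). Its neighbours in this order were TRBV17 at 1.62 ± 0.897% and TRBV12-1 at 1.38 ± 0.835% (SD, n = 12), neither of which differed from it beyond its spread. By group, TRBV23 ranked 15 in WT spleen and WT mLN, 21 in KO spleen and 20 in KO mLN.

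Over the 12 libraries, which include 2 organs of each mouse, the V segments whose log2 share was most like that of TRBV23 were TRBV20 (Pearson r = 0.610), TRBV24 (0.568) and TRBV19 (0.450). TRBV14 was the least alike (−0.637). These are descriptions, and shares within a library sum to a whole. For the V segments listed because they lie near TRBV23 in the locus, the KO over WT log2 fold changes in spleen and mLN were −0.14 and −0.15 for TRBV19, −0.63 and −0.51 for TRBV20, −0.48 and −0.97 for TRBV24, and 0.29 and 0.75 for TRBV26. Their SEs ran from 0.53 to 1.11, and in each of these 4 segments the WT and KO libraries overlapped in both organs. TRBV21 and TRBV22, added to this list after their values were seen, had wider errors. TRBV21 gave 1.35 (SE 1.19) and 0.84 (SE 1.17), at a mean share of 0.0546% of UMIs. TRBV22 gave 0.33 (SE 1.34) in spleen and did not reach the count minimum of the mLN fit. The values for TRBV23 itself were −2.58 and −2.20.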

How the data were processed

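By the study's methods, the authors primed cDNA synthesis in the TCR beta constant region, tagged the molecules with UMIs by 5′ RACE, sequenced on a MiSeq, collapsed reads per UMI with MIGEC and called clonotypes with MiXCR, default settings. Tool versions and the segment reference are not given in the sources used here. The deposited clone count was taken as UMIs, and the deposited clone fraction, which equals count over library total, only checked totals. The authors downsampled before their analysis, whereas the deposited tables are not downsampled. Reads per UMI and merging of similar sequences were set upstream and could change counts of rare clonotypes.

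The V and J of a clonotype were its first hits. TRBV23 had 0 tied hits. Organs were compared with edgeR 4.0.16 (R 4.3.3; quasi-likelihood, library totals, mouse as block) on the 25 V segments that reached 10 UMIs in 3 or more libraries, with DESeq2 1.42.0 as an alternative, and with two-sided exact sign-flip tests over 6 mice (64 patterns, smallest p 0.03125). Benjamini-Hochberg adjustment covered 25 V segments, 12 J segments or 5 features. Fits were tested on simulated counts. Log2 fold changes between genotypes are from the same kind of fit and have no p. Clonotype intervals are Wilson 95%, and the floor is 3 counts; both cover counting error only. An end was called rare when the last 9 CDR3 nucleotides held under 1% of the UMIs of that J segment, and libraries were split at 10% of single-UMI clonotypes with such ends. Likeness used log2(percent + 0.1). Edit distances were computed with edlib. The organ pairing comes from genotype and replicate number in the labels, and deviations of the organs of a mouse from group means in V usage correlated at 0.722 on average (0.361 to 0.846, 6 pairs). The labels do not say whether mice received cells of separate donors.

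The members, named clonotypes, V segments and tests were chosen with earlier results of these data known. Named were the most abundant productive TRBV23 clonotype of each mouse, up to 5 CDR3s found in the most mice, V segments near TRBV23 in likeness, level and locus, and all functional J segments. The clonotype second in the spleen of KO replicate 3, TRBV21 and TRBV22 were added after their values were seen. Alternatives were the unit counted, clonotype and J-end filters, leaving out tied hits, sequences 100 times or more above their level here in another mouse or the largest clonotype, DESeq2, TMM, all V segments, blocks and leaving out each mouse. Leaving out the smallest library, the organ test without the largest clonotype, shares of clonotypes of at least 2 UMIs and the J alternatives were chosen after seeing the data.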

Additional observations from a re-analysis of the deposited data

Results flagged for a closer look

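The mLN minus spleen difference of TRBV23 in WT replicate 3, 1.94 percentage points, lay apart from those of the other 5 mice, which ran from −0.0714 to 0.527. Its gap to the nearest mouse was 0.703 of the whole range, above Dixon's 95% critical value of 0.625 for 6 samples. The leading TRBV23 clonotype of this mouse stood at 2.91% of UMIs in spleen and 4.72% in mLN. As a log2 ratio of mLN over spleen, WT replicate 3 stood at 0.677, below KO replicate 1 (1.19) and KO replicate 3 (0.833). It thus lay apart in percentage points but not as a ratio. Of 6 results checked against Dixon's value 1 was picked out, and chance does so in about 1 of 20 groups.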

How the results depend on the processing

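Over 10 results and 118 alternatives, 101 values changed neither direction nor side of the threshold, or for untested values moved by at most 1 SD, 7 moved by more than 1 SD and 10 changed direction. Sign-flip tests with a mouse left out could not cross the threshold, so in these at most the direction could change. The KO minus WT difference in spleen, −1.68 percentage points, moved to −0.369 without the largest TRBV23 clonotype, to −0.287 as a share of clonotypes of at least 2 UMIs and to −0.644 within libraries with few rare J ends. That in mLN, −2.12, moved to −0.501, −0.0262 and −0.274 under the same alternatives and to −0.256 as a share of all clonotypes. Leaving out each mouse gave −2.16 to −1.06 in spleen and −2.98 to −0.875 in mLN, the lowest sizes being those without WT replicate 3. With the replicate number as a block (numbers 1 and 3), the differences were −1.81 in spleen and −2.37 in mLN. The labels do not say what same-numbered WT and KO mice share. Their deviations in V usage correlated at 0.156 on average (−0.0296 to 0.316, 4 pairs). Both mice numbered 1 had few rare J ends in both organs, and whether the number marks shared handling was not tested. As the KO minus WT differences carry no test, the block had no call to change. The log2 organ difference of 0.44 turned to −0.16 on clonotypes per V segment and was 0.61 without the mouse as a block; leaving out each mouse gave 0.28 to 0.55, and the adjusted p ranged from 0.289 to 0.990 over 14 alternatives. The interaction ranged from 0.09 to 0.79 on leaving out each mouse, with adjusted p from 0.120 to 0.991 over 11 alternatives. The TRBJ2 difference of −0.223 percentage points turned to 1.30 without the smallest library and was −7.19 weighted by UMIs, ranging from −4.44 to 2.64 on leaving out each mouse. The difference in both organs, −0.772, turned to 1.54 with each clonotype counted once (range −1.87 to 1.62). The difference in another mouse, 0.187, turned to −2.34 weighted by UMIs and −3.30 without clonotypes of 1 UMI (range −3.71 to 2.50). None of these differences passed a threshold under any alternative, and the cause of each change was not tested. CDR3 length (0.322 to 0.842) and the nonproductive share (−4.29 to −3.31) kept their direction on leaving out each mouse. The nonproductive difference shrank from −3.73 to −2.38 without the smallest library, −0.504 weighted by UMIs and −0.632 without clonotypes of 1 UMI. Of the J segments, 0 of 12 passed on leaving out each mouse and under the other J alternatives. With 5 mice the sign-flip test cannot go below 0.0625, so no such test could pass on leaving out a mouse. Depth limits KO replicate 3 mLN most, where 12 UMIs carry the TRBV23 share, and TRBV23 features of both organs of WT replicate 1 and KO replicate 1 rest on 7 to 14 clonotypes each.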
